A study of Rattus norvegicus with 9 samples.

Results

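Nuclear alanine and valine tRNA genes were described in small RNA libraries of rat (Rattus norvegicus) striatum, the input nucleus of the basal ganglia. They were taken as every nuclear tRNA entry of the count tables whose isotype is alanine or valine, with the mitochondrial entries left out. That rule gave 69 gene copies among 408 nuclear tRNA genes and 1759 small RNA entries. Of the 69 copies, 51 belong to alanine (36 with anticodon AGC, 4 with CGC, 2 with GGC and 9 with TGC) and 18 to valine (8 with AAC, 7 with CAC and 3 with TAC).

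The 9 libraries fall into 3 groups of 3. Rats of the MMT group were gavaged with methylcyclopentadienyl manganese tricarbonyl, an organic fuel additive, at 4 mg/kg in corn oil, which supplies about 1 mg of manganese per kg. Rats of the MnCl2 group, the study's positive control, received manganese chloride tetrahydrate at 200 mg/kg by gavage in physiological saline at 10 ml/kg, and control rats received corn oil at 1 ml/kg. Dosing was once a day on 6 days a week for 8 weeks, in animals that were 8 weeks old at the start. The study used 18 rats, 9 of each sex, with 6 in a group. The labels give neither the sex behind a library nor whether a library is 1 animal or a pool, so the p-values reflect variation among libraries that may be technical rather than between animals. MnCl2 libraries differ from control libraries in vehicle and volume as well as in manganese, and these cannot be told apart. MMT and MnCl2 libraries differ in compound, vehicle and dose, which cannot be told apart either.

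A tRNA carries its amino acid to the ribosome, where its anticodon pairs with the codon. Cleavage in the anticodon loop, by angiogenin under stress and by other nucleases, gives a 5′ and a 3′ piece of the tRNA, and further cuts give shorter fragments. In human cells, 5′ fragments of tRNA-Ala that open with a run of guanines are known to hold back translation initiation. Rodents also carry many short repeats and one neuronal RNA, Bc1, that are derived from a tRNA-Ala gene. The sequenced material was a gel band of 15 to 45 nucleotides, so counts on these entries, which are 68 to 84 bases long and all end in CCA, are counts of fragments and not of whole tRNAs. Levels of copies were left undivided by length because the entries are of nearly one length.

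Most counts sat on few sequence families. Of the 69 copies, 40 could be put into 7 families by their opening bases, called bodies here, and these held 95.4% of the alanine and valine counts. The most counted copy of each body is shown with its first 24 bases in capitals, the region a 5′ fragment would start from. The first 10 to 18 bases decided membership, and a copy may differ from the one shown further on. Positions are those in the entry names. The submitters' processing notes name rn6, against which the positions were not checked. Those on chromosomes 1, 2 and 4 run past the last RefSeq gene of the GRCr8 assembly (222222279 against 184404305 on chromosome 4). GRCr8 is another assembly, so this cannot decide whether they are rn6 positions. The build was left uncertain and no position was looked up in a genome.
tRNA-Val-CAC chr13:94104660-94104732 (+), Val body 1: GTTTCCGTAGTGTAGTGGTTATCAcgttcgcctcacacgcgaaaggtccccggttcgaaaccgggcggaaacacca
tRNA-Val-TAC chr1:235509981-235510053 (+), Val body 2: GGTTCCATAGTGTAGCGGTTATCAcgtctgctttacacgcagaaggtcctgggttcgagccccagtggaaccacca
tRNA-Ala-AGC chr10:96047933-96048004 (-), Val body 3: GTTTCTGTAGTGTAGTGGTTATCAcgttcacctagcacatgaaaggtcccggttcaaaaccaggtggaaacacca
tRNA-Ala-AGC chr6:36671591-36671663 (-), Ala body 1: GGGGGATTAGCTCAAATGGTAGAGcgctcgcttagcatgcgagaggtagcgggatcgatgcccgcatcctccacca
tRNA-Ala-AGC chr17:57920181-57920252 (+), Ala body 2: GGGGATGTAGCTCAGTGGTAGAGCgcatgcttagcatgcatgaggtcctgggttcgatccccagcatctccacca
tRNA-Ala-AGC chr17:57999034-57999105 (-), Ala body 3: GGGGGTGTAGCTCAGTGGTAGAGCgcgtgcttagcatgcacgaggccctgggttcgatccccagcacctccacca
tRNA-Ala-TGC chrX:107032200-107032271 (+), Ala body 4: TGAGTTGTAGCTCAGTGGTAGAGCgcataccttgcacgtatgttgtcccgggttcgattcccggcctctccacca
Ala bodies 1 to 3 all open with 4 or 5 guanines. The copy shown for Val body 3 carries an alanine anticodon on an otherwise valine-like sequence, with the same opening as 2 tRNA-Val-CAC copies.

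Val body 1, with 5 AAC and 5 CAC copies, held 44.3% of the 578707 alanine and valine counts of the 9 libraries. Val body 2 has 2 TAC copies of identical sequence and held 14.8%. Ala body 1 has 7 AGC copies and held 17.1%, and Ala body 2 has 1 AGC, 3 CGC and 3 TGC copies and held 16.5%. These 4 bodies, 26 copies, made up 92.6%. The 8 copies of Ala body 3 (6 AGC, 2 TGC) held 2.03%, the 3 copies of Val body 3 held 0.38% and the 3 TGC copies of Ala body 4 held 0.355%. The remaining 29 copies were 18 that resemble Bc1, with 1.02%, and 11 that were put in neither a body nor the Bc1-like set, called single copies here, with 3.63%.

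**Figure D1:**
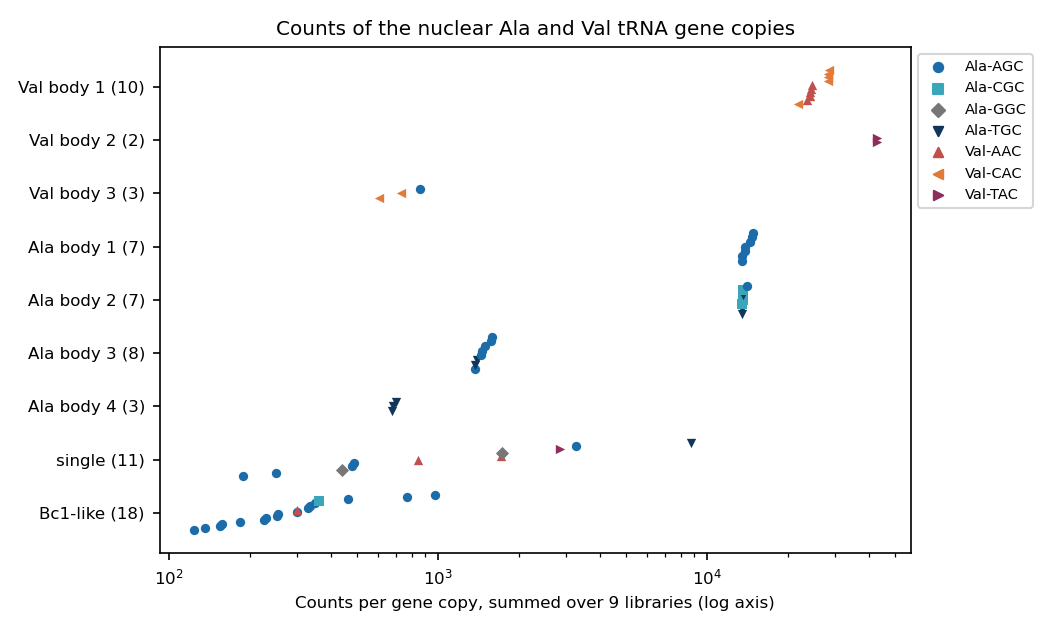
Counts of each of the 69 gene copies summed over the 9 libraries (log axis), by sequence body, with the number of copies in parentheses. Each point is 1 copy and its colour and shape give the anticodon. Copies of Val body 1 lie between 21855 and 28456 counts and copies of Ala body 1 and Ala body 2 between 13491 and 14785, whichever anticodon they carry, while the Bc1-like copies spread from 124 to 975.

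Within each of the 7 bodies the most counted copy had at most 1.43 times the counts of the least counted, in Val body 3 (604 to 862 counts). The 10 copies of Val body 1 had 21855 to 28456 counts each, the 2 copies of Val body 2 had 42726 and 42733, and the 7 copies of Ala body 1 had 13497 to 14785. Across anticodons of Ala body 2 the single AGC copy had 14057 counts, the 3 CGC copies 13502 to 13678 and the 3 TGC copies 13491 to 13622. The anticodons of Ala body 2 therefore had nearly the same level per copy in every library, with a ratio of highest to lowest anticodon between 1.014 (MnCl2 3) and 1.081 (MMT 1). A copy of each of these 3 anticodons and of both anticodons of Val body 1 is shown with the anticodon in capitals. The Val body 1 copies shown differ only within the anticodon, whereas the Ala body 2 copies shown also differ at bases outside it.
tRNA-Ala-AGC chr17:57920181-57920252 (+): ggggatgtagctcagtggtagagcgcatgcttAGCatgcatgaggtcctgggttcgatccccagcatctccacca
tRNA-Ala-CGC chr3:48254989-48255060 (+): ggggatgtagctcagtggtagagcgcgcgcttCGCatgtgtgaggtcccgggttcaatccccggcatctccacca
tRNA-Ala-TGC chr10:33966347-33966418 (-): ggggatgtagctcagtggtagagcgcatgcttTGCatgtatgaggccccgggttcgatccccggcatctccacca
tRNA-Val-AAC chr3:40753826-40753898 (-): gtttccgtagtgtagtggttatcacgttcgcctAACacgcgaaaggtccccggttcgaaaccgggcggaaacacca
tRNA-Val-CAC chr13:94104660-94104732 (+): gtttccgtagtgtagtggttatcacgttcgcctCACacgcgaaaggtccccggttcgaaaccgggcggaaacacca
In all, 9 sequences were held by more than 1 copy, 23 copies together. Among identical copies the most counted had 1.0094 times the counts of the least counted (median over the 9 sequences, range 1.0002 to 1.0613), and chi-square per degree of freedom was 0.769 at the median (0.289 to 2.77), where counting error alone gives about 1. These are ratios of sums over the 9 libraries. In single libraries the ratio between identical copies had a median of 1.0404 (range 1.0013 to 1.437), and the widest was 171 against 119 counts for the tRNA-Ala-TGC pair of Ala body 3 in MnCl2 2. How reads that match several copies were placed is not given in the sources used here, so the counts of a single copy in a body are not independent of its neighbours'. The levels summed by body below are the firmer values. Sums and shares by anticodon divide Val body 1 and Ala body 2 between anticodons whose copies can share their first 30 bases. They may therefore depend on how such reads were placed.

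Sharing a 5′ end did not make all copies equal. For the 10 groups that share their first 30 bases (40 copies) the ratio of highest to lowest copy had a median of 1.066, and the highest ratio, 5.27, belonged to 6 Bc1-like copies. In Val body 1, 4 CAC and 4 AAC copies share their first 30 bases and part only from the anticodon on. Per copy, CAC had 1.176 ± 0.00248 times the counts of AAC in MMT libraries, 1.168 ± 0.00316 times in MnCl2 libraries and 1.153 ± 0.0268 times in control libraries (SD, n = 3 each). CAC stood above AAC in all 9 libraries, with ratios of 1.131 to 1.183, and the control libraries spanned the whole range.

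The number of opening guanines did not order the alanine bodies. Ala body 2 opens with 4 guanines and its 7 copies had a median of 13576 counts, whereas the 8 copies of Ala body 3, with 5 guanines, had a median of 1454.5. Ala body 1 holds both kinds, and its 3 copies with 4 guanines had 13497 to 13867 counts while its 4 copies with 5 had 13566 to 14785. Over the 24 opening bases, the Ala body 2 and Ala body 3 copies shown differ at 1 position, A5G (counted from the 5′ end, Ala body 2 first). They also differ at bases further on, and the counts do not tell which bases the reads covered. Per copy, Ala body 2 had 8.85, 7.54 and 9.82 times the counts of Ala body 3 in MMT libraries, 8.17, 8.74 and 11.2 times in MnCl2 libraries, and 10.5, 9.35 and 7.83 times in control libraries. The 3 groups overlapped in this ratio.

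Copies that shared a run of at least 20 bases with Bc1 all had low counts. Bc1 is a brain-enriched noncoding RNA of rodents whose 5′ part is derived from tRNA-Ala. Of the 69 copies, 18 shared an unbroken run of at least 20 bases with the first 50 bases of Bc1, and 16 of these were tRNA-Ala-AGC, 1 tRNA-Ala-CGC and 1 tRNA-Val-AAC. The longest run, 46 bases, is shown in capitals in both sequences.
tRNA-Ala-AGC chr17:53858037-53858109 (+): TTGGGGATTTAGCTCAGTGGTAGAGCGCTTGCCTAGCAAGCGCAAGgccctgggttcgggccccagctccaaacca
Bc1 chr1:209502897-209502946 (+), first 50 bases in the RefSeq GRCr8 assembly: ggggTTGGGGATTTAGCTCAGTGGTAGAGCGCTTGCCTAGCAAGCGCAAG
Just inside the threshold, 2 copies shared 20 bases; just outside it, 19 copies shared 19 bases, including copies of Ala body 2 and Ala body 3. The 18 Bc1-like copies had 124 to 975 counts each, against 13497 or more in Ala body 1. Low counts were not theirs alone, since the copies of Val body 3, which shared at most 7 bases, had 604 to 862. Copies of Ala body 4 had 678 to 699, and the least counted copy outside the bodies and the Bc1-like set, tRNA-Ala-AGC chr6:86931415, had 189. These, however, are among the copies that shared 19 bases. So are the 7 copies of Ala body 2, which had 13491 to 14057 counts each, so a run just below the threshold went with high counts as well as low ones. A resemblance to Bc1 was not particular to alanine: 26 of the 339 other nuclear tRNA genes shared such a run, among entries named Gly-GCC, Phe-AAA, Pro-AGG, Ser-AGA and Thr-AGT or without a determined isotype. Counts on these copies cannot be assigned to tRNA, Bc1 or repeat transcripts from the counts alone.

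The copies were clustered in the entry coordinates. Chromosome 17 held 23 of the 69 copies (17 alanine and 6 valine) and 29.8% of the counts. Of these, 9 lie between 45778536 and 45929460 with 18.6% of the counts, and 12 lie between 57376425 and 58921329 with 11%.

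Summed by anticodon, valine and alanine tRNAs ranked from 6th to 47th among the 50 nuclear isotypes. Over the 9 libraries the mean level in CPM, the count relative to a TMM-scaled library total, was 13833 for Val-CAC, 13534 for Ala-AGC, 12568 for Val-AAC, 9038 for Val-TAC, 5647 for Ala-TGC, 4262 for Ala-CGC and 243 for Ala-GGC. Val-CAC and Ala-AGC, first and second, had SDs that overlapped in every group. Val-AAC lay below Val-CAC in all 9 libraries but above Ala-AGC in control 2. From Val-AAC down, the order was the same in all 9 libraries. Of these 7 anticodons Val-TAC, with 3 copies, had the highest level per copy at 3013 CPM, and Ala-AGC, with 36 copies, stood at 376 CPM per copy.

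Each anticodon sum was then followed through the groups; in tissue libraries such as these, fewer cells of a type and less RNA per cell cannot be told apart. Val-CAC stood at 15207, 12544 and 15061 CPM in MMT libraries, at 13192, 12241 and 12905 CPM in MnCl2 libraries and at 16579, 15189 and 11576 CPM in control libraries. Val-AAC stood at 13623, 11481 and 13483 CPM in MMT libraries, at 11923, 11227 and 11729 CPM in MnCl2 libraries and at 15089, 14174 and 10382 CPM in control libraries. For both, control 1 was the highest and control 3 the lowest of the 9 libraries, so the control group enclosed both manganese groups. Val-TAC, from Val body 2 and 1 other copy, stood at 9393, 8402 and 10325 CPM in MMT libraries, at 9484, 8238 and 8759 CPM in MnCl2 libraries and at 9913, 9525 and 7303 CPM in control libraries. Its groups overlapped.

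Ala-AGC, in which the first anticodon base is modified to inosine so that it reads several alanine codons, stood at 14702, 12814 and 14166 CPM in MMT libraries, at 12672, 12664 and 12575 CPM in MnCl2 libraries and at 16007, 13652 and 12552 CPM in control libraries. Each MMT library lay above each MnCl2 library, and the control libraries spanned both. Ala-TGC stood at 5436, 5186 and 5433 CPM in MMT libraries, at 4835, 5677 and 6750 CPM in MnCl2 libraries and at 5863, 5577 and 6064 CPM in control libraries. Ala-CGC stood at 4186, 3961 and 4171 CPM in MMT libraries, at 3498, 4282 and 5166 CPM in MnCl2 libraries and at 4527, 4237 and 4331 CPM in control libraries. For Ala-TGC and Ala-CGC, which share Ala body 2, each MMT library lay below each control library, and the MnCl2 libraries were the most spread. Ala-GGC, the rarest, stood at 217, 291 and 185 CPM in MMT libraries, at 293, 300 and 231 CPM in MnCl2 libraries and at 145, 240 and 283 CPM in control libraries, with all groups overlapping.

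In MMT against control libraries, no anticodon sum passed the test. By edgeR's quasi-likelihood test with Benjamini-Hochberg adjustment over 755 entries, log2 fold changes ran from -0.12 for Ala-TGC (SE 0.15, 95% interval -0.44 to 0.19) to 0.07 for Val-TAC (SE 0.15, -0.27 to 0.41), all with an adjusted p of 0.9996. The intervals for the 6 anticodons other than Ala-GGC lie within -0.44 to 0.41, and that for Ala-GGC runs from -0.53 to 0.64. The groups did not overlap for 2 of the 7 sums, Ala-TGC and Ala-CGC, both lower in MMT libraries. These 2 share Ala body 2, so they are not separate observations. Over the 755 entries, 1.99% had every MMT library below every control library and 2.38% had every one above. At an unadjusted p under 0.05 there were 0 of 7 anticodon sums by edgeR and 0 by DESeq2, against 0.132% of the 755 entries higher and 1.32% lower by edgeR. Adjusted calls were 0 in the whole table, a background of 0%.

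In MnCl2 against control libraries, no anticodon sum passed the test either. The log2 fold changes were -0.18 for Val-AAC (SE 0.16, 95% interval -0.53 to 0.16), -0.18 for Val-CAC (SE 0.16, -0.52 to 0.17), -0.16 for Ala-AGC (SE 0.14, -0.45 to 0.14) and 0.31 for Ala-GGC (SE 0.27, -0.28 to 0.89), each with an edgeR adjusted p of 0.921. Those of Ala-CGC, Ala-TGC and Val-TAC were -0.02, -0.02 and -0.01. In this comparison 0 of 7 sums had groups that did not overlap (6.62% of the 755 entries did so higher and 3.31% lower), and 0 of 7 had an unadjusted p under 0.05 by edgeR or DESeq2 (1.85% of entries higher, 1.46% lower by edgeR). Without control 3 this count became 2 of 7 by edgeR, Val-AAC (-0.40, SE 0.16, adjusted p = 0.432) and Val-CAC (-0.38, SE 0.16, adjusted p = 0.456), where 6.49% of 771 entries were higher and 3.89% lower. In MMT against MnCl2 libraries the log2 fold changes ran from -0.25 for Ala-GGC (SE 0.27, -0.84 to 0.33) to 0.16 for Val-CAC (SE 0.16, -0.19 to 0.51), with an edgeR adjusted p of 0.998 each. Ala-AGC was the 1 sum of 7 whose groups did not overlap (0.14, SE 0.14, -0.16 to 0.43), where 2.91% of entries had every MMT library above every MnCl2 library and 5.83% had every one below, and 0 of 7 had an unadjusted p under 0.05 by edgeR or DESeq2 (0.795% of entries in each direction by edgeR).

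Summed by body, the copies were followed in the same way. Val body 1 stood at 28422, 23502 and 28170 CPM in MMT libraries, at 24689, 22953 and 24205 CPM in MnCl2 libraries and at 31277, 28890 and 21423 CPM in control libraries. Ala body 1 stood at 11179, 9117 and 10929 CPM in MMT libraries, at 9364, 8766 and 8601 CPM in MnCl2 libraries and at 12795, 10217 and 8465 CPM in control libraries. In both bodies control 1 was the highest and control 3 the lowest library, and the MnCl2 libraries were the closest together. Ala body 2 stood at 9674, 9088 and 9704 CPM in MMT libraries, at 8223, 10020 and 12013 CPM in MnCl2 libraries and at 10495, 9808 and 9990 CPM in control libraries. Here the order was another: MnCl2 1 was the lowest and MnCl2 3 the highest of the 9, and each MMT library lay below each control library.

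The Bc1-like copies summed to 634, 720 and 497 CPM in MMT libraries, to 624, 748 and 693 CPM in MnCl2 libraries and to 459, 563 and 918 CPM in control libraries. For these, control 1 was the lowest and control 3 the highest library, the reverse of Val body 1 and Ala body 1. Val body 3, the rare valine body that includes the alanine-anticodon copy, summed to 194, 206 and 218 CPM in MMT libraries, to 314, 207 and 211 CPM in MnCl2 libraries and to 226, 261 and 284 CPM in control libraries. Each MMT library lay below each control library. Ala body 4 summed to 215, 267 and 205 CPM in MMT libraries, to 181, 216 and 217 CPM in MnCl2 libraries and to 161, 192 and 392 CPM in control libraries, where control 3 stood apart.

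With bodies and single copies as the units (19 in all, tested among 767 entries), edgeR's quasi-likelihood test called 0 of 19 in each of the 3 comparisons, against a background of 0%. The lowest adjusted p was 0.99966 in MMT against control, 0.921 in MnCl2 against control and 0.998 in MMT against MnCl2 libraries, and at an unadjusted p under 0.05 there were 0 of 19 in each comparison by edgeR and by DESeq2. By edgeR, 0.13% of the 767 entries were higher and 1.3% lower in MMT against control libraries at that threshold, 1.83% and 1.43% in MnCl2 against control, and 0.782% and 0.782% in MMT against MnCl2. In MMT against control libraries the log2 fold change was -0.09 for Ala body 2 (SE 0.15, 95% interval -0.42 to 0.24) and -0.32 for Val body 3 (SE 0.21, -0.77 to 0.14). These and tRNA-Ala-TGC chrX:107132775 were the 3 of 19 whose groups did not overlap, all lower in MMT libraries (2.35% of entries did so higher and 2.09% lower). Between MnCl2 and control libraries it was -0.18 for Val body 1 (SE 0.16, -0.54 to 0.17), -0.24 for Ala body 1 (SE 0.17, -0.60 to 0.13) and 0.10 for the Bc1-like copies (SE 0.25, -0.46 to 0.65), with 0 of 19 whose groups did not overlap (6.52% of entries did so higher and 3.26% lower). Without control 3, Val body 1 (-0.40, SE 0.16, edgeR adjusted p = 0.44) and Ala body 1 (-0.44, SE 0.17, adjusted p = 0.437) were 2 of 19 with an unadjusted p under 0.05, where 6.39% of 783 entries were higher and 3.83% lower. The MMT and MnCl2 libraries likewise overlapped for 19 of 19 (2.74% and 5.74% of entries did not overlap).

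**Figure D2:**
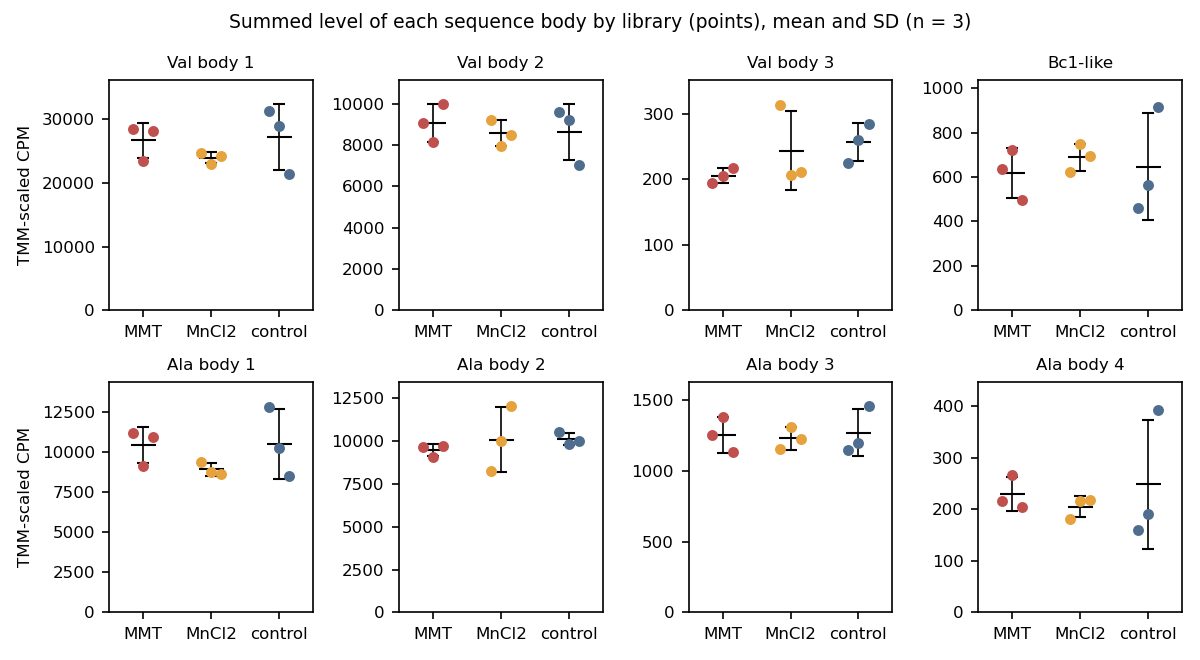
Summed level of the 7 bodies and of the Bc1-like copies in TMM-scaled CPM, with 1 point per library and the mean and SD of each group (n = 3). The control libraries span the widest range in Val body 1 (21423 to 31277) and in the Bc1-like copies (459 to 918), and the MnCl2 libraries the widest in Ala body 2 (8223 to 12013).

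By single gene copy, all 69 passed the filter on low counts and were tested among 1113 entries. EdgeR's quasi-likelihood test with Benjamini-Hochberg adjustment called 0 of 69 in MMT against control, in MnCl2 against control and in MMT against MnCl2 libraries, as it called 0% of all entries in each. At an unadjusted p under 0.05, in MMT against control libraries, there were 0 of 69 by edgeR and 0 by DESeq2, where 0.18% of all entries were higher and 1.98% lower by edgeR. In MnCl2 against control libraries 1 of 69 was lower by each tool (1.44% of entries higher and 3.14% lower by edgeR), and in MMT against MnCl2 libraries there were 0 of 69 by each tool (1.35% higher, 0.629% lower by edgeR). The count for MnCl2 against control moved most without control 3, the least deeply sequenced library: 18 of 69 copies were then lower and 2 higher at that threshold (8.33% of 1129 entries lower and 5.58% higher), the 18 being all 10 copies of Val body 1, all 7 of Ala body 1 and 1 other. With TMM factors from miRNAs alone 9 of 69 were lower (13.6% of entries lower, 0.629% higher). Adjusted calls stayed at 0 of 69 in both cases.

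The fold changes of the 69 copies centred near 0. In MMT against control libraries the median log2 fold change was -0.02, with 29 copies positive and 40 negative, and the median over all 1113 entries was 0.01. In MnCl2 against control libraries it was -0.04 with 26 positive and 43 negative, beside 0.06 over all entries, and in MMT against MnCl2 libraries 0.00 with 35 positive and 34 negative, beside -0.06 over all entries. These splits follow the scaling. With TMM factors from miRNAs alone, 6 copies were positive and 63 negative in MMT against control (median -0.12), 15 and 54 in MnCl2 against control (median -0.23) and 43 and 26 in MMT against MnCl2 libraries (median 0.10), and the median over all entries in MnCl2 against control moved to -0.14. With total-count scaling 16 were positive and 53 negative in MMT against control. With the nuclear tRNA genes alone in the table, 40 were positive and 29 negative in MnCl2 against control and 27 and 42 in MMT against MnCl2. No direction is therefore given for the copies as a set.

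Copies of one body often had fold changes of one sign. All 10 copies of Val body 1 had negative log2 fold changes in MnCl2 against control libraries (median -0.19, range -0.24 to -0.15) and all 7 copies of Ala body 1 did (median -0.22, -0.34 to -0.18), while 11 of the 18 Bc1-like copies were positive (median 0.16). In MMT against control libraries all 7 copies of Ala body 2 were negative (median -0.10, -0.13 to -0.05). Copies of a body share sequence and may share reads, so these are not separate observations.

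**Figure D3:**
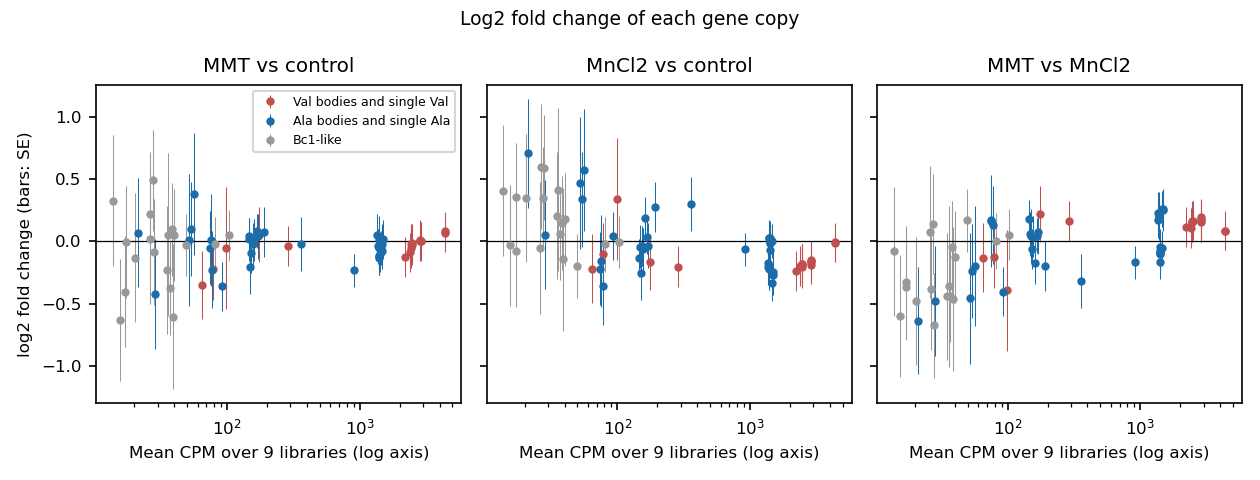
Log2 fold change of each of the 69 copies against its mean level over the 9 libraries (log axis), for MMT against control, MnCl2 against control and MMT against MnCl2 libraries. Points are copies and bars are standard errors. The 26 copies of the 4 largest bodies, at the right of each panel, lie between -0.34 and 0.26 in the 3 comparisons, and the widest fold changes and errors belong to the rarest copies, many of them Bc1-like.

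The copies with the lowest unadjusted p in MMT against control libraries all lay outside the 4 largest bodies. The alanine-anticodon copy with a valine-like body, tRNA-Ala-AGC chr10:96047933, stood at 86, 66.5 and 76 CPM in MMT libraries, at 120.2, 91.8 and 92.3 CPM in MnCl2 libraries and at 92.3, 88 and 116 CPM in control libraries. Each MMT library lay below each library of both other groups. Its log2 fold change was -0.36 against control (SE 0.20, 95% interval -0.79 to 0.07, edgeR adjusted p = 0.99994) and -0.41 against MnCl2 libraries (SE 0.20, -0.84 to 0.03, adjusted p = 0.981). A single copy, tRNA-Ala-TGC chrX:107132775, stood at 854, 784 and 845 CPM in MMT libraries and at 960, 948 and 1014 CPM in control libraries, which did not overlap (log2 fold change -0.23, SE 0.13, -0.52 to 0.05, edgeR adjusted p = 0.99994). In all, 4 of the 69 copies had each MMT library below each control library and 0 had each above, where 2.79% and 1.8% of all entries did. The other 2 were tRNA-Ala-CGC chr17:45785667 and tRNA-Ala-TGC chr12:38503098 of Ala body 2. However, tRNA-Ala-TGC chr10:33966347, identical in sequence to tRNA-Ala-TGC chr12:38503098, did overlap, with 1410 CPM in MMT 3 against 1407 CPM in control 3. The non-overlap of tRNA-Ala-TGC chr12:38503098 is therefore not a trait of its sequence.

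Others named by the same rule were low in counts. The Bc1-like tRNA-Ala-AGC chr10:64915057 stood at 8.52, 15.1 and 10.6 CPM in MMT libraries and at 11.1, 15.6 and 27.4 CPM in control libraries. The Bc1-like tRNA-Ala-AGC chr18:22032449 stood at 39.2, 35.1 and 20.6 CPM in MMT libraries and at 20.6, 15.6 and 31.9 CPM in control libraries. Both pairs of groups overlapped. Overlap was also seen for tRNA-Ala-AGC chr4:222222205, at 52.8, 77.8 and 43.3 CPM in MMT libraries and at 12.8, 55.7 and 68.4 CPM in control libraries, and for tRNA-Ala-AGC chr4:210944016, the least counted copy of all, at 11.9, 18.8 and 12.8 CPM in MMT libraries and at 6.67, 10.8 and 18.2 CPM in control libraries. For tRNA-Ala-AGC chr4:222222205 the log2 fold change of 0.38 (SE 0.49) became -0.10 without control 1.

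The lowest p of MnCl2 against control libraries belonged to a copy of Ala body 1, tRNA-Ala-AGC chr18:32102212. It stood at 1344, 1277 and 1187 CPM in MnCl2 libraries and at 1927, 1438 and 1447 CPM in control libraries, with 1561, 1410 and 1590 CPM in MMT libraries. Each MnCl2 library lay below each library of both other groups, and it was the 1 copy of 69 whose MnCl2 and control libraries did not overlap (4.76% of entries did so higher and 4.94% lower). Its log2 fold change was -0.34 (SE 0.14, 95% interval -0.65 to -0.03). It was the copy under an unadjusted p of 0.05 counted above, and its edgeR adjusted p over the 1113 entries was 0.843. Next by p among negative fold changes were another Ala body 1 copy, tRNA-Ala-AGC chr2:124127980 (-0.27, SE 0.16), and a Val body 1 copy, tRNA-Val-CAC chr17:45816908 (-0.24, SE 0.16). Of the 26 positive fold changes the lowest p belonged to tRNA-Ala-AGC chr6:86931415 at 33.1, 31.3 and 19.9 CPM in MnCl2 libraries and at 11.7, 16.6 and 24.3 CPM in control libraries (0.71, SE 0.44), tRNA-Ala-AGC chr14:2850928 (0.59, SE 0.42) and tRNA-Ala-GGC chr5:163074062 (0.28, SE 0.20), each with an edgeR adjusted p of 0.843.

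In MMT against MnCl2 libraries 5 of 69 copies had groups that did not overlap, 2 higher and 3 lower in MMT libraries, where 4.31% of all entries were higher and 4.76% lower in this sense. The 2 higher were the Ala body 1 copies tRNA-Ala-AGC chr18:32102212 (log2 fold change 0.26, SE 0.14, edgeR adjusted p = 0.981) and tRNA-Ala-AGC chr6:36671591 (0.26, SE 0.16). The second of these, tRNA-Ala-AGC chr6:36671591, had the highest mean level of the alanine copies and stood at 1644, 1443 and 1663 CPM in MMT libraries and at 1421, 1305 and 1237 CPM in MnCl2 libraries. Its copy of identical sequence, tRNA-Ala-AGC chr2:124127980, did overlap, with 1380 CPM in MMT 2 against 1384 CPM in MnCl2 1. The non-overlap of tRNA-Ala-AGC chr6:36671591 is therefore not a trait of its sequence. The 3 lower were tRNA-Ala-AGC chr10:96047933, given above, and the Bc1-like tRNA-Ala-AGC chr10:64915057 and tRNA-Ala-AGC chr7:60728549. A further Ala body 1 copy, tRNA-Ala-AGC chr17:45815808 (0.22, SE 0.17), and the rare tRNA-Ala-AGC chr14:2850928 (-0.67, SE 0.42) and tRNA-Ala-AGC chr6:86931415 (-0.64, SE 0.43) completed the lowest p-values, with overlapping groups.

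The most and least counted valine copies overlapped between groups. The Val body 2 copy tRNA-Val-TAC chr1:235510321, with the highest mean level of the 69, stood at 4540, 4136 and 4972 CPM in MMT libraries, at 4674, 3960 and 4229 CPM in MnCl2 libraries and at 4769, 4632 and 3505 CPM in control libraries (log2 fold change 0.08, SE 0.16, for MMT against control and -0.01, SE 0.16, for MnCl2 against control). The least counted valine copy was tRNA-Val-AAC chr1:249418918, whose sequence is Bc1-like rather than valine-like, at 25.5, 45.2 and 18.5 CPM in MMT libraries, at 34.5, 46.9 and 37.8 CPM in MnCl2 libraries and at 14.5, 31.3 and 60.8 CPM in control libraries. Its groups overlapped, and the control libraries spanned all others.

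Within an anticodon the copies differed far more among themselves than between groups. The most counted Val-CAC copy, tRNA-Val-CAC chr13:94104660, averaged 2990 ± 281 CPM in MMT, 2692 ± 90.9 CPM in MnCl2 and 2986 ± 558 CPM in control libraries (SD, n = 3 each, as for the other copies here). The next copy of another sequence, tRNA-Val-CAC chr17:45778536, averaged 2969 ± 319 CPM in MMT, 2654 ± 133 CPM in MnCl2 and 2957 ± 589 CPM in control libraries, and the least counted, tRNA-Val-CAC chr17:45929388 of Val body 3, 57.7 ± 13.1 CPM in MMT, 63.4 ± 16.9 CPM in MnCl2 and 73.7 ± 11.9 CPM in control libraries. The SDs of the 3 groups overlapped for each of them. Among Val-AAC copies, tRNA-Val-AAC chr3:40753826 averaged 2568 ± 259 CPM in MMT, 2291 ± 75.8 CPM in MnCl2 and 2594 ± 488 CPM in control libraries, and tRNA-Val-AAC chr17:58921257 averaged 2407 ± 261 CPM in MMT, 2230 ± 111 CPM in MnCl2 and 2560 ± 493 CPM in control libraries. Both belong to Val body 1. The Val-TAC copy outside Val body 2, tRNA-Val-TAC chr6:51211211, averaged 296 ± 51.7 CPM in MMT, 265 ± 3.15 CPM in MnCl2 and 304 ± 48.5 CPM in control libraries, far below the copies of that body.

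Among alanine copies the same held. The CGC copies tRNA-Ala-CGC chr3:48254989 and tRNA-Ala-CGC chr17:45785667, both of Ala body 2, averaged 1352 ± 57.4 CPM in MMT, 1441 ± 257 CPM in MnCl2 and 1454 ± 75.4 CPM in control libraries, and 1352 ± 45.9 CPM in MMT, 1398 ± 291 CPM in MnCl2 and 1467 ± 44.2 CPM in control libraries. The Bc1-like tRNA-Ala-CGC chrX:15009445 averaged 39.4 ± 8.38 CPM in MMT, 42.6 ± 8.64 CPM in MnCl2 and 38.5 ± 18 CPM in control libraries, so a CGC anticodon sits on a copy of each kind. Of the TGC copies, tRNA-Ala-TGC chr10:33966347 and tRNA-Ala-TGC chr12:38497863 of Ala body 2 averaged 1336 ± 74.8 CPM in MMT, 1433 ± 306 CPM in MnCl2 and 1450 ± 63.5 CPM in control libraries, and 1355 ± 64.1 CPM in MMT, 1435 ± 242 CPM in MnCl2 and 1409 ± 65.5 CPM in control libraries. The least counted TGC copy, tRNA-Ala-TGC chr8:38076116 of Ala body 4, averaged 78.4 ± 21.2 CPM in MMT, 69.2 ± 16.9 CPM in MnCl2 and 79.1 ± 43.8 CPM in control libraries. The pair of GGC copies differed several-fold: tRNA-Ala-GGC chr5:163074062 averaged 185 ± 30.2 CPM in MMT, 212 ± 26.4 CPM in MnCl2 and 176 ± 40.8 CPM in control libraries, and tRNA-Ala-GGC chr1:83108483 averaged 46.4 ± 24.1 CPM in MMT, 62.9 ± 14 CPM in MnCl2 and 46.8 ± 29.9 CPM in control libraries.

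Shares need no scaling between libraries. Alanine and valine together made up 17.2%, 15.1% and 17.6% of nuclear tRNA counts in MMT libraries, 16.3%, 15.8% and 17.1% in MnCl2 libraries and 18.7%, 17% and 15.4% in control libraries. The groups overlapped, with means of 16.6% ± 1.36 in MMT, 16.4% ± 0.633 in MnCl2 and 17% ± 1.67 in control libraries (SD, n = 3 each). Exact two-sided permutation tests over 20 arrangements, which cannot go below p = 0.1, gave p = 0.8 for MMT against control, 0.7 for MnCl2 against control and 0.8 for MMT against MnCl2 libraries.

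Within valine, the shares of the anticodons separated MnCl2 from control libraries. Val-TAC made up 27.4%, 26.0% and 26.2% of valine counts in MnCl2 libraries and 23.8%, 24.5% and 25.0% in control libraries, a difference of 2.11 percentage points in the means. Val-CAC made up 38.1%, 38.6% and 38.6% in MnCl2 libraries and 39.9%, 39.1% and 39.6% in control libraries, and Val-AAC 34.5%, 35.4% and 35.1% in MnCl2 libraries and 36.3%, 36.4% and 35.5% in control libraries. Every MnCl2 library was above every control library for Val-TAC and below for the other two, and these 3 shares are not independent since they sum to the whole. The exact two-sided permutation p was 0.1 for each, the smallest 3 against 3 allows, and 0.233 after Benjamini-Hochberg adjustment over 7 anticodons. Groups did not overlap for 3 of these 7 anticodon shares and for 21.4% of the 42 over all nuclear isotypes, these 7 included. MMT libraries, at 24.6%, 25.9% and 26.6% for Val-TAC, overlapped both other groups.

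Within alanine the shares overlapped in every comparison. Ala-AGC made up 59.9%, 57.6% and 59.1% of alanine counts in MMT libraries, 59.5%, 55.2% and 50.9% in MnCl2 libraries and 60.3%, 57.6% and 54.0% in control libraries. Ala-TGC made up 22.2%, 23.3% and 22.7% in MMT libraries, 22.7%, 24.8% and 27.3% in MnCl2 libraries and 22.1%, 23.5% and 26.1% in control libraries. MnCl2 3 had the lowest Ala-AGC and highest Ala-TGC share of the 9. In MMT against control libraries 0 of 7 anticodon shares had groups that did not overlap (9.52% of 42 over all nuclear isotypes), and in MMT against MnCl2 libraries 1 of 7, Val-CAC (31% of 42), with exact two-sided permutation p-values of 0.1 or more.

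**Figure D4:**
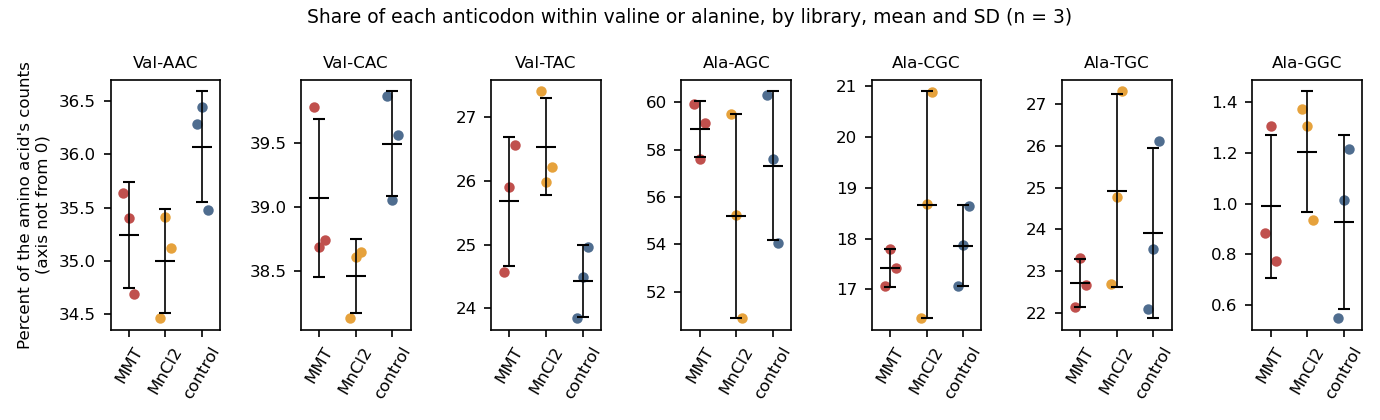
Percent of valine counts or of alanine counts on each anticodon, with 1 point per library and the mean and SD of each group (n = 3), on axes that do not start at 0. For Val-TAC the MnCl2 libraries (26.0% to 27.4%) lie above the control libraries (23.8% to 25.0%), and for Val-AAC and Val-CAC they lie below.

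Across libraries several alanine and valine values moved with sequencing depth. Total counts ran from 730044 to 1543987 in MMT libraries, from 753383 to 989556 in MnCl2 libraries and from 583045 (control 3) to 2012769 (control 1) in control libraries. Over the 9 libraries the alanine plus valine share of nuclear tRNA counts was higher in libraries with a higher log2 total (Pearson's r = 0.928 with an exact permutation p of 0.00038, adjusted 0.00456 over 12 relations; Spearman rho = 0.95, exact permutation p = 0.000353, adjusted 0.00423), and without control 1 and control 3 it still did (r = 0.842, n = 7, exact permutation p = 0.0184). Val body 1 rose as well (r = 0.88, exact permutation p = 0.00146, adjusted 0.00585; rho = 0.85, p = 0.00607, adjusted 0.0198) and the Bc1-like copies fell (r = -0.858, p = 0.00336, adjusted 0.00836; rho = -0.833, p = 0.00827, adjusted 0.0198). Without those 2 libraries neither passed (r = 0.709, exact permutation p = 0.0923, and r = -0.663, exact permutation p = 0.101, n = 7), so these relations rest in part on control 1 and control 3. Ala body 1 (r = 0.886, exact permutation p = 0.00128, adjusted 0.00585; rho = 0.833, p = 0.00827, adjusted 0.0198) and Val body 2 (r = 0.789, p = 0.0113, adjusted 0.0226; rho = 0.767, p = 0.0214, adjusted 0.0367) had the same sign as Val body 1. Ala body 3 (r = -0.727, exact permutation p = 0.0272, adjusted 0.0466; rho = -0.767, p = 0.0214, adjusted 0.0367) and Ala body 4 (r = -0.691, p = 0.0364, adjusted 0.0547; rho = -0.683, p = 0.0503, adjusted 0.0755) had that of the Bc1-like copies. None of these 4 passed without control 1 and control 3 (exact permutation p = 0.0615, 0.107, 0.249 and 0.578 in the order given). Neither Ala body 2 (r = 0.295, exact permutation p = 0.447, adjusted 0.487) nor Val body 3 (r = -0.467, exact permutation p = 0.204, adjusted 0.244) passed with all 9 libraries. The scaling moved with depth as well, with a TMM factor of 0.894 in control 1 and 1.13 in control 3. As percent of all counts, which uses no such factor, alanine plus valine stood at 6.09% in control 1 and 5.92% in control 3, and no relation with depth passed for them (r = 0.21, exact permutation p = 0.592, adjusted 0.592; rho = 0.367, p = 0.336, adjusted 0.404; r = 0.135 without those 2 libraries) or for Val body 1 (r = 0.534, exact permutation p = 0.14, adjusted 0.186; rho = 0.633, p = 0.076, adjusted 0.101; r = 0.293 without them). The Bc1-like copies kept theirs (r = -0.853, exact permutation p = 0.00348, adjusted 0.00836; rho = -0.833, p = 0.00827, adjusted 0.0198; r = -0.677 without them, p = 0.0867). The control group held both the most and the least deeply sequenced library. The part of depth in the group comparisons was measured only by adding the log2 total as a covariate, which left 0 of 69 copies called in each comparison by edgeR.

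**Figure D5:**
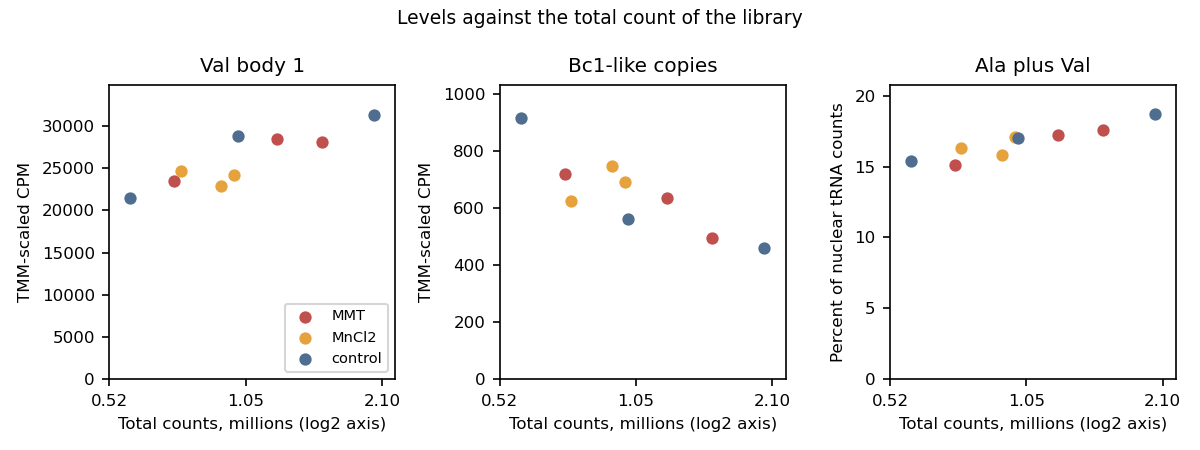
Level of Val body 1 and of the Bc1-like copies in TMM-scaled CPM, and alanine plus valine as percent of nuclear tRNA counts, against the total count of the library (log2 axis). Each point is 1 library, coloured by group. Control 3, at 583045 counts, and control 1, at 2012769 counts, sit at opposite ends of the total-count axis in all 3 panels. In the third panel the lowest share was that of MMT 2 (15.1%), below control 3 (15.4%).

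Some piRNA entries of the same tables are fragments of these tRNAs. Of 585 piRNA entries, 17 shared at least 16 bases with an alanine or valine copy, 7 lay wholly inside one, and the 17 held 15.1% of piRNA counts. The most counted, pir-64745, is the 5′ end of Val body 1.
pir-64745: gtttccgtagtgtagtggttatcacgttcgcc
The test covered 14 of the 17, and those named next are the ones with an unadjusted p under 0.05. In MMT against MnCl2 libraries 3 were higher and 0 lower (1.35% and 0.629% of the 1113 entries). Of these, pir-64745 stood at 652, 482 and 596 CPM in MMT libraries and at 400.5, 435 and 420 CPM in MnCl2 libraries, which did not overlap (log2 fold change 0.46, SE 0.15, edgeR adjusted p = 0.981). The overlapping fragments pir-64744 (0.52, SE 0.14) and pir-87165 (0.45, SE 0.12) had like values, each with an edgeR adjusted p of 0.981. Val body 1 as a whole differed by 0.16 (SE 0.16), and the fragments pir-64742 and pir-64743, of the same 5′ end, differed by 0.11 (SE 0.15) and 0.28 (SE 0.21). Between MnCl2 and control libraries 0 were higher and 3 lower (1.44% and 3.14% of entries), namely pir-64745 (-0.34, SE 0.15), pir-64746 (-0.62, SE 0.19) and the cluster entry of pir-64523 (-0.82, SE 0.35), each with an edgeR adjusted p of 0.843. The sequence of pir-64746 shares bases with Val body 1 but lay wholly inside no alanine, valine or other nuclear tRNA gene. In MMT against control libraries 0 were higher and 3 lower (0.18% and 1.98% of entries), the cluster entries of pir-64518, pir-64523 and pir-64524 (-0.87, -0.92 and -0.92, edgeR adjusted p = 0.99994), while the tRNA entries of the same names stood at -0.25, 0.00 and 0.01. None of these 3 sequences lay wholly inside an alanine or valine copy, and pir-64523 and pir-64524 lay wholly inside other nuclear tRNA genes. In these 3 cluster entries control 1 was the highest of the 9 libraries, at 122 to 124 CPM, and without it the differences against control became -0.38, -0.47 and -0.56 for MMT and -0.37 for pir-64523 in MnCl2 libraries.

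The libraries carried the small RNAs of brain. The neuronal miR-124-3p, miR-9a-5p and miR-128-3p stood at 1945 to 2655, 21857 to 32149 and 16357 to 22393 CPM, and the oligodendrocyte miR-219a-5p and miR-338-3p at 465 to 1094 and 2526 to 4234 CPM. Erythrocyte, muscle and liver miRNAs were between 3.34 and 139 CPM, and the choroid plexus miR-204-5p ranged from 201 CPM in MMT 2 to 1920 CPM in MMT 3. The part of tissue composition in the values above was not tested.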

How the data were processed

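Small RNA libraries of rat striatum were made, per the labels' protocols, from a gel band of 15 to 45 nucleotides with a kit that ligates adapters to small RNAs. Trimmomatic (version not given) and the build rn6 are named, per the submitters' processing notes. The authors deposited raw counts, 1 file per library with the same 1759 entries and their sequences. Not given in the sources used here are the aligner, how reads that match several copies were placed, and whether strand or molecular identifiers were used, so counts may include PCR copies.

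Groups and replicate numbers came from the sample titles. The test was the two-sided quasi-likelihood F-test of edgeR 4.0.16 (R 4.3.3) on 1 robust fit of the 9 libraries, after filterByExpr and TMM scaling, with Benjamini-Hochberg adjustment over all 1113 entries kept, 755 with nuclear tRNA genes summed by anticodon, or 767 with copies summed by body. The TMM factors of the full table served every table. DESeq2 1.42.0 was an alternative. Shares were compared by exact permutation tests, adjusted over the 7 anticodons found (6 had been planned for). Intervals are 95% confidence intervals of the log2 fold change, computed from the variation between libraries. Scripts were tested on simulated data. Other steps and figures were run in pandas 2.3.3, numpy 2.4.6 and matplotlib 3.10.9 under Python 3.11.15.

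The members and lists were chosen with earlier results of these data known, and the bodies, the comparison with Bc1 and the relations with depth after the sequences and counts were seen. Named were every anticodon sum, the 2 most and the 1 least counted copies per anticodon, and for each comparison the 3 copies of lowest p in each direction, 1 per distinct sequence. Copies with groups that did not overlap were also named, after their values were seen. The Bc1 sequence is from RefSeq (GRCr8).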

Additional observations from a re-analysis of the deposited data

How the results depend on the processing

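Each alternative run left 0 of 69 copies, 0 of 7 anticodon sums and 0 of 19 body sums called in each comparison. These were DESeq2, RLE, total-count or miRNA-only scaling, nuclear tRNA genes alone, no filter or at least 10 CPM in 3 libraries, no robust weights, the 2 groups alone, identical sequences summed (55 in place of the 69 copies, run for copies only), a replicate block, the log2 total as covariate, and each library left out in turn. Directions of small fold changes did turn, and the cause was not tested. With miRNA-only scaling the log2 fold change became -0.021 for Ala-GGC and -0.031 for Val-TAC in MMT against control and 0.024 for Ala-CGC in MMT against MnCl2 libraries. In MnCl2 against control it became 0.048 for Ala-CGC, 0.045 for Ala-TGC and 0.056 for Val-TAC with nuclear tRNA genes alone, and 0.0055 for Ala-CGC and 0.055 for Val-TAC with the covariate. The difference in the alanine plus valine share between MMT and MnCl2 libraries became -0.0248 percentage points with Gly-GCC left out of the nuclear tRNA counts (exact permutation p = 1). Leaving out 1 library in turn, the log2 fold change in MMT against control ranged from -0.087 to 0.092 for Ala-AGC, -0.17 to 0.28 for Ala-GGC, -0.18 to 0.075 for Val-AAC and -0.15 to 0.10 for Val-CAC, turning without MMT 2 or control 1, from -0.042 to 0.16 for Val-TAC, turning without MMT 3 or control 3, and from -0.10 to 0.82 for tRNA-Ala-AGC chr4:222222205, turning without control 1. In MnCl2 against control it ranged from -0.17 to 0.11 for Ala-CGC and -0.21 to 0.071 for Val-TAC, turning without control 1 and without MnCl2 1 or MnCl2 2, and from -0.16 to 0.086 for Ala-TGC, turning without MnCl2 1. In MMT against MnCl2 it ranged from -0.20 to 0.073 for Ala-CGC, turning without MMT 2 or MnCl2 3, and from -0.21 to 0.021 for Ala-TGC, turning without MnCl2 3. The alanine plus valine share differed by -1.23 to 0.441 percentage points in MMT against control (turning without MMT 2 or control 1), by -1.48 to 0.189 in MnCl2 against control (without control 1) and by -0.239 to 1.03 in MMT against MnCl2 (without MMT 1, MMT 3 or MnCl2 2). Differences in anticodon share, left out in turn as chosen after the data were seen, ranged in MMT against control from -0.0726 to 3.07 for Ala-AGC (turning without control 3) and -0.127 to 0.208 for Ala-GGC (without MMT 2 or control 1), in MnCl2 against control from -4.26 to 0.0616 for Ala-AGC, -0.306 to 1.93 for Ala-CGC and -0.171 to 2.13 for Ala-TGC (all without MnCl2 3), and in MMT against MnCl2 from -0.022 to 0.525 for Val-AAC (without MnCl2 1). At an unadjusted p under 0.05 by edgeR, MnCl2 against control libraries had 0 to 18 copies lower and 0 to 2 higher over the alternatives. Both maxima came without control 3, where 8.33% of 1129 entries were lower and 5.58% higher. MMT against MnCl2 libraries had 0 to 3 copies higher (3 with the 2 groups alone) and 0 to 2 lower. The 2 lower came with nuclear tRNA genes alone, where 4 of 408 entries were lower. For the 2 groups alone the share over all entries is not given here, so that count is not read as a result. The replicate block left 0 of 69 copies called in each comparison and turned no anticodon sum or named copy; in MMT against control 31 copies in place of 29 and 9 body sums in place of 7 were positive; same-numbered libraries deviated from their group means with correlations of -0.67 to 0.49, not all above 0.1, so the numbers were not read as pairs. With 3 libraries a group, even the 95% interval of Ala-AGC in MMT against control ran from -0.31 to 0.28 on the log2 scale, and smaller differences could not be shown; the least counted copies have the widest errors.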
